A study of Mus musculus with 29 samples.

Results

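A set of signalling genes of the suprachiasmatic nucleus (SCN), the brain's central circadian clock, were followed in mouse hypothalamus from the first postnatal week to old age. They were taken by symbol, 7 of the 24499 gene symbols counted. Vip, Prok2, Nms and Grp encode secreted signals, Vipr2 and Prokr2 encode receptors, and Lhx1 encodes a transcription factor. RNA was sequenced from untreated wild-type C57BL/6 mice, labelled male, that lived alone in a light-dark cycle (12 h of each phase), and the tissue was removed around 6 h after the lights came on. Postnatal day 5 (P5) and 3 weeks had 3 mice each, 4 weeks and 5 weeks had 4 each, the ages of 2, 6, 12 and 18 months had 3 each and 24 months had 2, with 1 library per mouse. Sampling at a single time of day means that no daily rhythm was measured. The SCN is a small part of the hypothalamus, and in a bulk sample fewer cells of a type and less RNA per cell cannot be told apart.

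The SCN receives light signals from the retina and keeps its neurons in step with one another through secreted peptides. Vasoactive intestinal peptide (VIP), made in the light-receiving core, acts on the receptor VPAC2, which Vipr2 encodes and which raises cyclic AMP (cAMP) in the receiving neuron. Gastrin-releasing peptide (Grp) is a second core signal, neuromedin S (Nms) marks a broad class of SCN neurons, and prokineticin 2 (Prok2) carries timing out of the nucleus to cells that bear its receptor Prokr2. Lhx1 is needed for the maturation of SCN neurons and for their expression of peptides such as VIP. Several of these genes are also active elsewhere in the brain, for example Vip in interneurons of the cortex and Lhx1 in Purkinje cells of the cerebellum.

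In GENCODE release M21 (GRCm38), all 7 are protein-coding genes. Vip lies at chr10:5639218-5647617 (+), Vipr2 at chr12:116077726-116146261 (+), Prok2 at chr6:99711299-99726392 (-), Prokr2 at chr2:132337733-132385447 (-), Nms at chr1:38939149-38950276 (+) and Lhx1 at chr11:84518284-84525535 (-). Annotated antisense genes overlap Vipr2, Prok2 and Grp and have no row of their own in the counts, and whether counting used strand is not given in the sources used here. Counts of these 3 genes can therefore hold reads of either strand.

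Promoter sequences of 250 bases before to 50 bases after the gene start were taken from RefSeq (GRCm38.p6), where 6 of the 7 symbols matched, all but Grp. They were searched on both strands for the cAMP response element (CRE) TGACGTCA, its 7-base form TGACGTC, its core TGACG, the clock-factor E-box CACGTG and the D-box TTATGTAA. The shorter CRE forms lie inside the longer ones. The following 3 promoters are shown because each holds one of these motifs, in capitals: the 7-base CRE, 79 bases before the start of Vip and 50 bases before that of Lhx1, and the E-box, 135 bases before that of Prok2. They are printed 5′ to 3′ on the strand of the gene, for Vip chr10:5638968-5639267 (+), for Lhx1 chr11:84525485-84525784 (-) and for Prok2 chr6:99726343-99726642 (-).
Vip: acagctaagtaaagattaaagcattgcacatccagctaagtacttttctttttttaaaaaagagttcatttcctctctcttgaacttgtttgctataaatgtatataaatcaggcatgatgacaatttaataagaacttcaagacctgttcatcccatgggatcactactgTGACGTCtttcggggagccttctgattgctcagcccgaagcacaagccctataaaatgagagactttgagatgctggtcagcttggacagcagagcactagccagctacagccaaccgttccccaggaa
Lhx1: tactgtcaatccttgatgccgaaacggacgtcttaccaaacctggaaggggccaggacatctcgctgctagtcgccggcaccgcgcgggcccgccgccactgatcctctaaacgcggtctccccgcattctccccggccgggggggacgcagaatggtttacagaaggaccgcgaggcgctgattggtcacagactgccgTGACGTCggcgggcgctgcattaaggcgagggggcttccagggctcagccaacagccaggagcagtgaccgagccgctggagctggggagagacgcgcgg
Prok2: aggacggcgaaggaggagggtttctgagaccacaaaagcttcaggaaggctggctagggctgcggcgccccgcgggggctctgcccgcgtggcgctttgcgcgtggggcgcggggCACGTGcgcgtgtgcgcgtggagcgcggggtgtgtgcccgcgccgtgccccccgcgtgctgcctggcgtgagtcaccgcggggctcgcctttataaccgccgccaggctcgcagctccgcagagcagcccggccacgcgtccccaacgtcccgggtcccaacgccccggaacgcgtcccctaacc
Of 32851 mouse promoters of this length, 3.21% hold the 7-base CRE, 20.8% its core, 1.79% the full CRE, 7.15% the E-box and 0.938% the D-box. Among the members the core was found in the same 2 promoters as the 7-base form, and the full CRE and the D-box in 0. These are matches of letters, and no binding was measured.

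Depth was 24661631 to 39783779 gene counts per library, so that 3 counts made 0.0754 to 0.122 CPM (counts scaled to library size and composition). Some libraries stood apart from their group or label. At P5, replicates 1 and 2, labelled male, held the female-specific Xist at 746 and 791 CPM and 0 counts of the Y-linked Ddx3y. The 3 libraries of 2 months held 163 to 275 CPM of 20 hypothalamus markers in sum, against 375 to 989 CPM at the other ages, and 80.8 to 122 CPM of 20 midbrain and hindbrain markers. At other ages the midbrain and hindbrain sum was 22.1 to 68.2 CPM, except in replicate 34 of 6 months, with 115 CPM. Replicate 1 of 3 weeks held 796 CPM of striatum markers, against 296 and 338 CPM in replicates 2 and 3, and replicate 32 of 6 months held 641 CPM, against 323 and 286 CPM in replicates 33 and 34. Choroid plexus markers summed to 13.9 to 4910 CPM over the libraries. The 3-week libraries and 2 of the 4-week libraries held 1.44 to 2.11 CPM of the small RNA gene Rn7s2, and the other 4-week and all 5-week libraries 21.7 to 29.6 CPM. All 20 hypothalamus markers had counts at every age. How far these differences entered the values below was not tested unless a value is given.

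**Figure D1:**
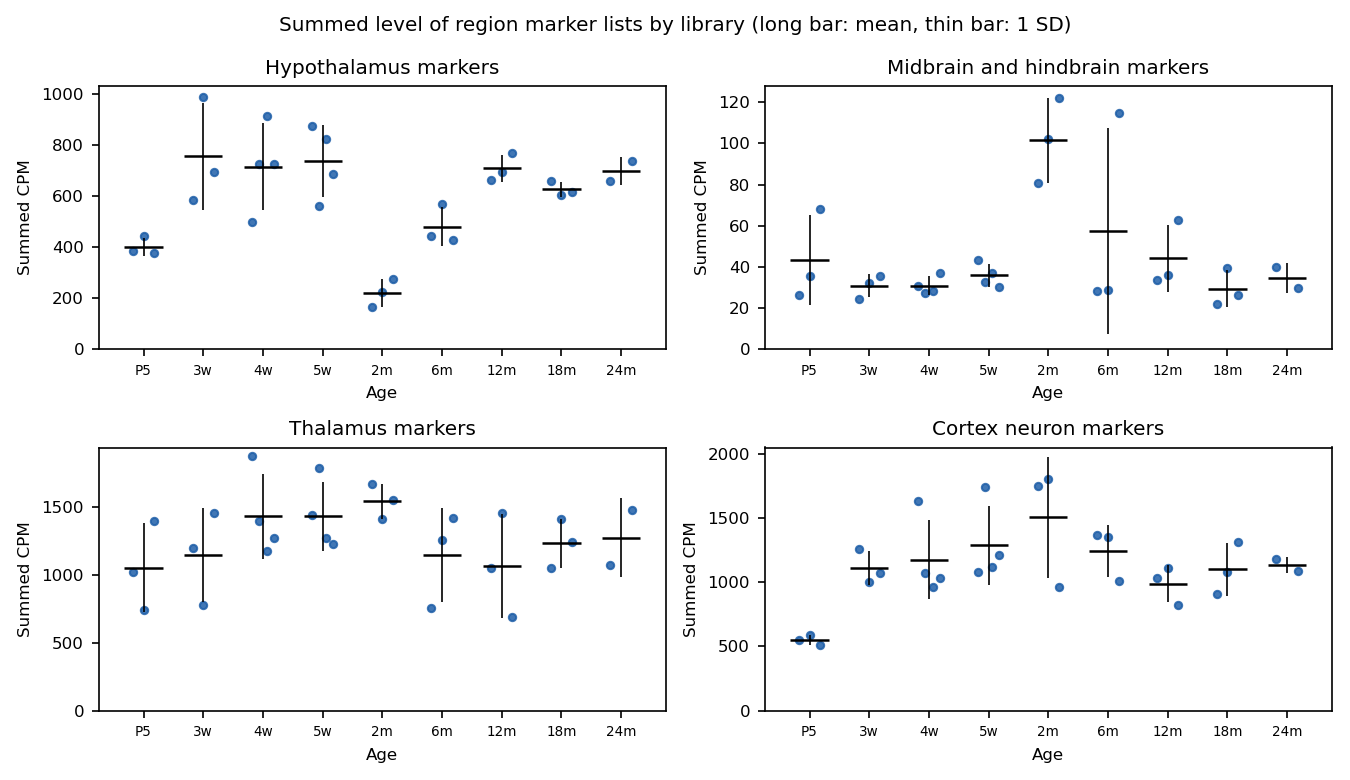
Summed CPM (y axis) of 4 region marker lists in each library, by age (x axis, P5 to 24 months). Points are libraries, long bars means and thin bars 1 SD. Hypothalamus markers were lowest at 2 months, 163 to 275 CPM, where midbrain and hindbrain markers had their highest mean, 80.8 to 122 CPM. Replicate 34 of 6 months lay in that last range, with 115 CPM.

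All 7 genes passed the filter on low counts, and all had low levels. The highest value of any member was 20.3 CPM, of Lhx1 at P5. Prok2 had 4 to 78 counts per library and Nms 5 to 45. The other 5 members had 55 to 727 counts. Scaled to the exon length of the gene, the median over 28 libraries was 3.73 CPM per kb for Grp, 1.97 for Vipr2, 1.55 for Lhx1, 1.4 for Vip, 0.918 for Prokr2, 0.64 for Nms and 0.404 for Prok2. On this scale Grp ranked first at 8 of the 9 ages. At 18 months the means of Vip and Grp were nearly equal, 2.84 ± 1.6 and 2.83 ± 0.744 CPM per kb (mean ± SD). Over the 9 ages, 6 of the 7 members differed (edgeR quasi-likelihood F-test, adjusted p 1.6e-06 for Lhx1 to 0.00139 for Grp). This share is read against 76.8% of all 16916 genes tested. Prok2 did not pass (adjusted p = 0.0694, and 0.0293 with DESeq2).

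Among the ligands, Vip averaged 1.81 ± 0.247 at P5, 5.03 ± 0.305 at 3 weeks, 5.21 ± 2.09 at 4 weeks, 4.39 ± 1.45 at 5 weeks, 3.86 ± 1 at 2 months, 4.58 ± 0.264 at 6 months, 4 ± 2.05 at 12 months, 9.66 ± 5.44 at 18 months and 7.48 ± 1.7 at 24 months (CPM, mean ± SD). P5 was the lowest age and its 3 libraries lay below those of every other age. Ordered by mean, neighbouring ages overlapped in 6 of 8 pairs. At 18 months replicate 14 held 15.9 CPM, and replicates 15 and 16 held 5.94 and 7.14 CPM. Nms averaged 0.491 ± 0.0866 at P5, 0.719 ± 0.176 at 3 weeks, 1.07 ± 0.352 at 4 weeks, 0.768 ± 0.246 at 5 weeks, 0.22 ± 0.046 at 2 months, 0.597 ± 0.346 at 6 months, 0.715 ± 0.303 at 12 months, 1.05 ± 0.158 at 18 months and 0.48 ± 0.222 at 24 months. The 2-month libraries, with 0.181, 0.207 and 0.271 CPM, lay below all others, and the remaining 7 pairs of neighbours in the order of means overlapped. Prok2 averaged 1.22 ± 0.889 at P5, 1.03 ± 0.141 at 3 weeks, 0.856 ± 0.178 at 4 weeks, 0.557 ± 0.314 at 5 weeks, 0.246 ± 0.0602 at 2 months, 0.565 ± 0.269 at 6 months, 0.734 ± 0.642 at 12 months, 0.93 ± 0.503 at 18 months and 0.938 ± 0.0831 at 24 months. No pair of neighbouring means was apart beyond the spread of their libraries. Grp averaged 7.36 ± 0.646 at P5, 5.73 ± 0.747 at 3 weeks, 5.71 ± 0.674 at 4 weeks, 5.46 ± 0.688 at 5 weeks, 8.85 ± 1.99 at 2 months, 4.2 ± 1.32 at 6 months, 5.59 ± 1.49 at 12 months, 4.18 ± 1.1 at 18 months and 4.95 ± 0.262 at 24 months. It was highest at 2 months and at P5, and in the order of means the libraries parted between 3 weeks and P5, while the other 7 pairs of neighbours overlapped.

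Of the receptors, Vipr2 averaged 4.63 ± 1.5 at P5, 7.5 ± 1.13 at 3 weeks, 9.25 ± 1.39 at 4 weeks, 9.22 ± 1.34 at 5 weeks, 16 ± 3.48 at 2 months, 7.74 ± 3.03 at 6 months, 7.03 ± 2.65 at 12 months, 9.62 ± 0.592 at 18 months and 8.9 ± 3.42 at 24 months. The 2-month libraries, with 13.3 to 19.9 CPM, lay above all others, and the other 7 pairs of neighbours in the order of means overlapped. Prokr2 averaged 14.4 ± 3.65 at P5, 6.65 ± 0.728 at 3 weeks, 6.92 ± 0.595 at 4 weeks, 7.21 ± 0.36 at 5 weeks, 5.42 ± 1.05 at 2 months, 6.49 ± 1.8 at 6 months, 7.63 ± 2.42 at 12 months, 8.52 ± 2.3 at 18 months and 11.4 ± 2.03 at 24 months. P5 and 24 months were its highest ages, and all 8 pairs of neighbours overlapped. Lhx1, the transcription factor, averaged 17.4 ± 3.17 at P5, 5.75 ± 1.62 at 3 weeks, 5.48 ± 0.79 at 4 weeks, 5.8 ± 1.42 at 5 weeks, 6.97 ± 1.66 at 2 months, 6.74 ± 1.78 at 6 months, 7.55 ± 0.881 at 12 months, 6.65 ± 1.11 at 18 months and 5.22 ± 1.24 at 24 months. Its P5 libraries, 14 to 20.3 CPM, lay above all others, whose highest value was 8.85 CPM.

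**Figure D2:**
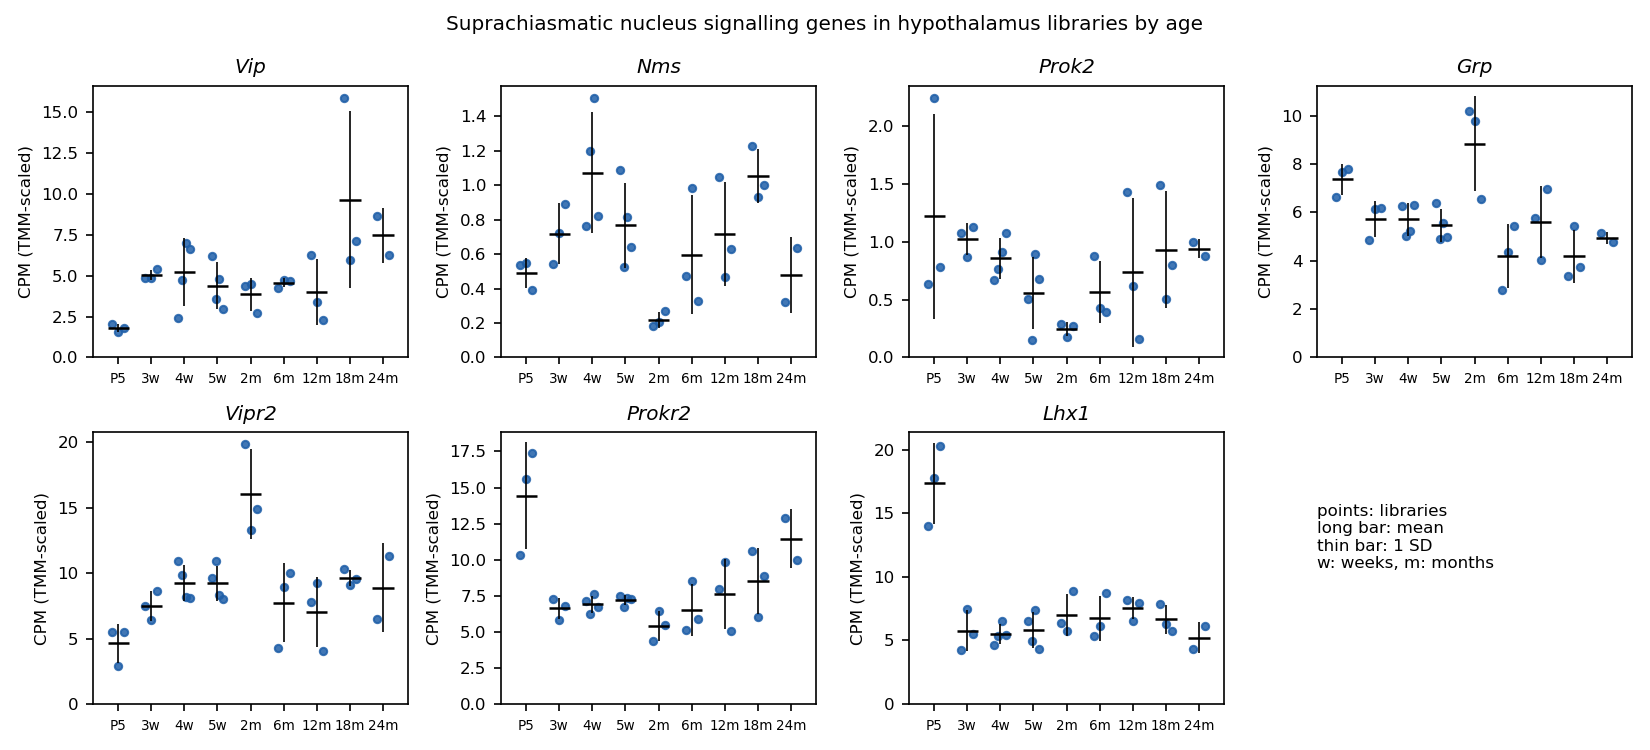
CPM (y axis, from 0) of the 7 genes in each of 28 libraries, by age (x axis, P5 to 24 months, not to scale). Points are libraries, long bars means and thin bars 1 SD. Lhx1 is high at P5 alone (14 to 20.3 CPM), Vipr2 is highest and Nms lowest at 2 months, and Vip is lowest at P5.

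The step from the first postnatal week to weaning age was read from 3 weeks against P5. Vip had 4.84, 4.88 and 5.39 CPM at 3 weeks and 2.07, 1.58 and 1.79 CPM at P5. All 3-week libraries lay above all P5 libraries, and Vip rose 2.78-fold (log2 fold change 1.47 ± 0.40 SE, edgeR adjusted p = 0.00296). Its receptor gene Vipr2 had 7.46, 6.39 and 8.66 CPM at 3 weeks and 5.52, 2.9 and 5.47 CPM at P5, again without overlap. Vipr2 rose by 0.70 ± 0.30 (adjusted p = 0.0491), a call that was lost under 6 of 11 alternatives (adjusted p 0.013 to 0.4), among them leaving out P5 replicate 2 (0.45, adjusted p = 0.237), 3-week replicate 1 (0.71, 0.0827) or 3-week replicate 3 (0.58, 0.15). With the P5 library that held Y-linked counts alone on the P5 side, a fit that takes the spread from the other ages and assumes that this library varies like them, Vip differed by nearly the same amount, 1.48, without passing (adjusted p = 0.0599), and Vipr2 differed by 0.45 (adjusted p = 0.4).

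Lhx1 fell to 4.27, 7.48 and 5.51 CPM at 3 weeks, against 14, 17.8 and 20.3 CPM at P5. Its log2 fold change of -1.60 ± 0.23 (adjusted p = 2.08e-06) is a level at 3 weeks of 0.33 times that at P5. Prokr2 had 7.28, 5.85 and 6.81 CPM at 3 weeks and 10.3, 15.6 and 17.4 CPM at P5, and fell by 1.12 on the log2 scale (fold change -1.12 ± 0.23, adjusted p = 0.000171). Both decreases held under all 11 alternatives, that fit with 1 P5 library included, with log2 fold changes of -1.83 to -1.42 for Lhx1 and -1.39 to -0.96 for Prokr2. The remaining ligands did not pass. Grp had 4.87, 6.14 and 6.19 CPM at 3 weeks and 6.62, 7.68 and 7.79 CPM at P5, with no overlap (-0.36 ± 0.22, adjusted p = 0.158). Nms differed by 0.55 ± 0.39 (adjusted p = 0.236) and Prok2 by -0.25 ± 0.53 (adjusted p = 0.702), which was 0.53 without P5 replicate 2, the library with 2.24 CPM.

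In this step 2 of the 7 members rose and 2 fell, against 29.8% and 29.3% of all genes tested (59.0% in either direction). Of the members 5 did not overlap between the ages, against 67.0% of all genes. The members' count is therefore near the background. The promoters of Vip and Lhx1 shown above both hold the 7-base CRE, and the 2 genes moved in opposite directions here. Whether this element bears on either change was not tested.

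Genes from related lists also moved in both directions. Bulk hypothalamus does not place the changes of these genes in the SCN. Of 16 tested relatives of these ligands and receptors, 2 rose and 2 fell (median log2 fold change -0.03, against -0.01 over all genes). Adcyap1, which encodes the peptide PACAP, rose (0.79 ± 0.19, adjusted p = 0.0011), as did the cholecystokinin receptor gene Cckar (1.35 ± 0.22, adjusted p = 8.22e-06). Prokr1, the second prokineticin receptor, fell (-1.22 ± 0.33, adjusted p = 0.00257), as did neuromedin B, Nmb (-0.61, adjusted p = 0.0409). Of 16 other SCN peptides and enriched genes, 7 rose and 1 fell (median 0.49). Cartpt, a neuropeptide gene, had 47.9 ± 9.02 CPM at 3 weeks and 7.42 ± 2.47 CPM at P5, and Rgs16, a regulator of G-protein signals in the SCN, had 89.7 ± 22.2 CPM at 3 weeks and 17.9 ± 1.32 CPM at P5. The calcium-binding protein gene Calb1 (1.06) and the secretogranin gene Scg2 (0.62) rose too.

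Of 15 transcription factors of the SCN, 2 rose and 6 fell at 3 weeks against P5 (median -0.59). Zfhx3, a regulator of clock period, had 46.9 ± 3.96 CPM at 3 weeks and 75 ± 6.82 CPM at P5, and its relative Zfhx4 (-0.88) and Nr2f2 (-0.80) fell with it. Rora, a nuclear receptor of the clock loop that the thalamus also expresses, rose by 1.34 ± 0.37 (adjusted p = 0.00375). Of 22 genes of cAMP signalling, which VPAC2 drives, 11 rose and 5 fell (median 0.25). The regulatory subunits of protein kinase A split: Prkar2b had 80.1 ± 15.3 CPM at 3 weeks and 261 ± 5.72 CPM at P5 (-1.71, adjusted p = 1.3e-11), whereas Prkar1a (0.68) and Prkar1b (0.58) rose. Crem, a transcription factor that responds to cAMP, rose by 0.84 ± 0.10. Hypothalamus markers moved in the same interval, with 7 of 20 higher, 1 lower and sums of 582 to 989 CPM at 3 weeks against 375 to 442 CPM at P5. Their part in these differences was not tested. The markers of library sets, Rn7s1, Rn7s2 and Bpifa2, summed to 36.8 to 49.6 CPM at 3 weeks and 0.259 to 0.502 CPM at P5. In the 3-week sums Bpifa2 made 34, 47 and 42.6 CPM, and Rn7s2 made 1.83, 1.44 and 2.11 CPM. The gap between the sums coincides with age and cannot be told apart from it.

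At 5 weeks against 3 weeks 0 of 7 members were called and 0 were free of overlap, against 2.15% and 16.1% of all genes. The tool was edgeR, which called 363 genes, and 1972 had an unadjusted p below 0.05. Log2 fold changes were -0.20 ± 0.36 for Vip, 0.29 ± 0.28 for Vipr2, 0.11 ± 0.22 for Prokr2 and 0.02 ± 0.22 for Lhx1. Prok2 differed most, with 0.557 ± 0.314 CPM at 5 weeks and 1.03 ± 0.141 CPM at 3 weeks (-0.88 ± 0.53, adjusted p = 0.579). The 5-week libraries belong to the set with high Rn7s2 and the 3-week libraries to the set with low Rn7s2, so age and set are separated here only through the 4-week libraries. With the set as a term, 0 members passed, Prok2 differed by -1.34 (adjusted p = 0.42), Vip by -1.11 (adjusted p = 0.347) and Vipr2 by 0.66 (adjusted p = 0.285). Of the 4 related lists, 0 genes were called.

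**Figure D3:**
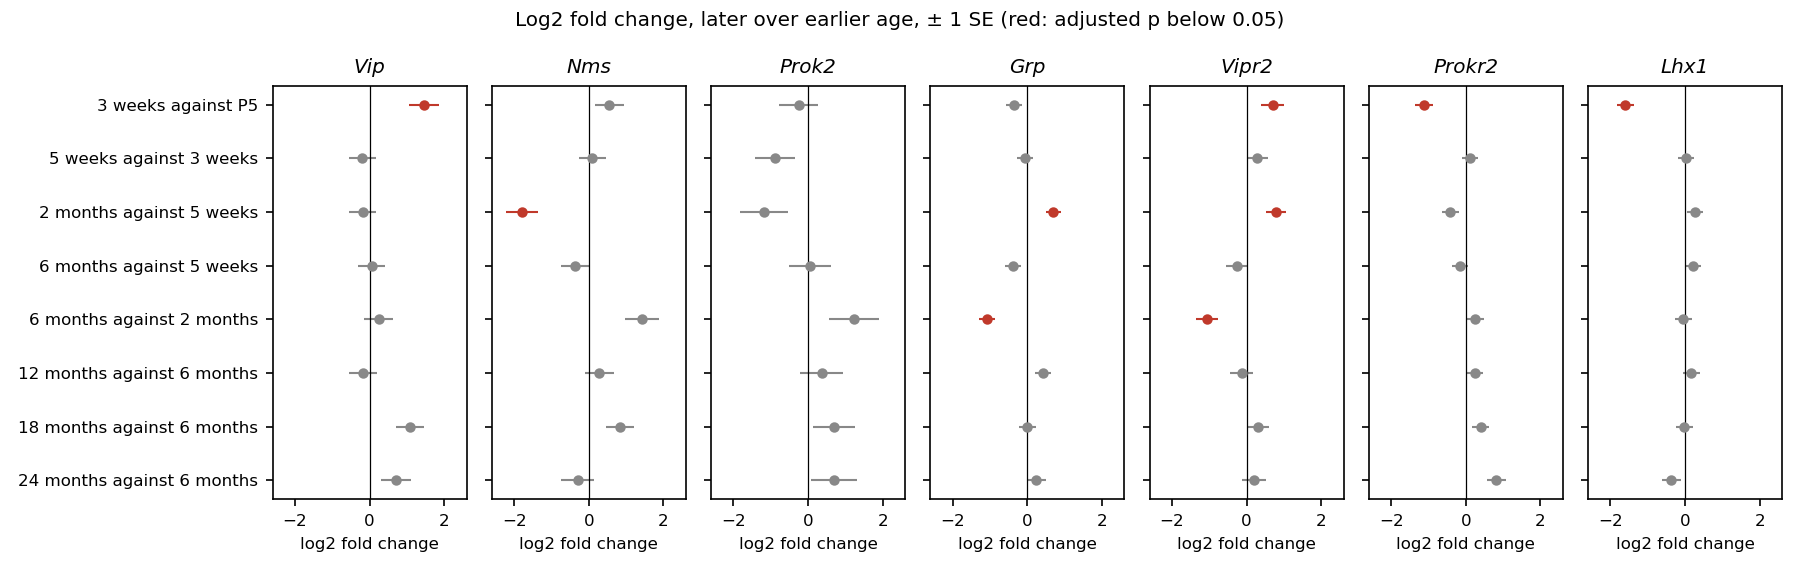
Log2 fold change (x axis) of each gene in 8 comparisons (rows), later over earlier age, with 1 SE. Points in red have an adjusted p below 0.05: Vip, Vipr2, Prokr2 and Lhx1 at 3 weeks against P5, Nms, Grp and Vipr2 at 2 months against 5 weeks, and Grp and Vipr2 at 6 months against 2 months.

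At 2 months Nms fell and Vipr2 and Grp rose relative to 5 weeks. Nms had 0.181, 0.207 and 0.271 CPM at 2 months (5, 7 and 7 counts) and 1.09, 0.523, 0.813 and 0.644 CPM at 5 weeks (28, 14, 21 and 18 counts). No library overlapped, and the level at 2 months was 0.289 times that at 5 weeks (log2 fold change -1.79 ± 0.43, adjusted p = 0.00598). The call held under all 10 alternatives (-1.95 to -1.58, adjusted p 0.00249 to 0.0244).

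Vipr2 had 19.9, 13.3 and 14.9 CPM at 2 months and 9.65, 10.9, 8.29 and 8.02 CPM at 5 weeks. It rose 1.74-fold (0.80 ± 0.27, adjusted p = 0.0437), and 6 of 10 alternatives ended the call (adjusted p up to 0.188). Among these were the fits without 2-month replicate 11 (0.60, adjusted p = 0.188) or 13 (0.84, 0.0685) and without 5-week replicate 1 (0.82, 0.0741), 3 (0.75, 0.114) or 4 (0.73, 0.111). Grp had 10.2, 9.76 and 6.57 CPM at 2 months and 6.38, 4.9, 5.58 and 4.98 CPM at 5 weeks, and rose 1.62-fold (0.70 ± 0.20, adjusted p = 0.0202). Leaving out 2-month replicate 11 (0.58, adjusted p = 0.0895), 2-month replicate 12 (0.62, 0.0718) or 5-week replicate 4 (0.65, 0.0563) ended that call.

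The other 4 members did not pass. Prokr2 had 4.35, 6.45 and 5.45 CPM at 2 months and 7.51, 6.69, 7.36 and 7.27 CPM at 5 weeks, with no overlap (-0.41 ± 0.22, adjusted p = 0.218). Prok2 had 0.29, 0.177 and 0.271 CPM at 2 months and 0.506, 0.149, 0.891 and 0.68 CPM at 5 weeks (-1.18 ± 0.65, adjusted p = 0.226). Vip differed by -0.18 ± 0.36 (adjusted p = 0.791) and Lhx1 by 0.26 ± 0.22 (adjusted p = 0.454). In all, 2 members rose and 1 fell, against 7.13% and 9.43% of all genes (16.6% in either direction), and 4 did not overlap, against 25.2%.

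Of the called genes of the related lists, more fell than rose in this step. Of the 15 SCN transcription factors, 7 fell and 1 rose (median -0.66, against 0.01 over all genes). Six6, which is needed for the SCN to form, had 0.67 ± 0.199 CPM at 2 months and 4.06 ± 0.792 CPM at 5 weeks (-2.61 ± 0.33, adjusted p = 4.01e-05), and Vax1, of the same anterior hypothalamus, had 1.46 ± 0.805 CPM at 2 months and 9.61 ± 1.99 CPM at 5 weeks. The homeobox genes Dlx2 (-1.64) and Dlx1 (-1.51) of GABA neurons fell too. Of the 16 SCN peptides and enriched genes 7 fell and 2 rose (median -0.35), among them the vasopressin gene Avp with 28.2 ± 25.1 CPM at 2 months and 299 ± 73.3 CPM at 5 weeks, and galanin, Gal (-1.69). Gpr176, an orphan receptor that lowers cAMP in the SCN, differed by -0.49 ± 0.07 (adjusted p = 0.000141). Of 16 tested relatives 6 fell and 0 rose (median -0.42), including Nmur2, a receptor for neuromedin S (-1.46 ± 0.33, adjusted p = 0.00433), the vasopressin receptor gene Avpr1a (-0.95), Cckar (-1.04) and the PACAP receptor gene Adcyap1r1 (-0.28). Of the 22 cAMP genes 6 fell and 1 rose (median -0.10).

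Region markers moved in the same libraries. At 2 months against 5 weeks 16 of 20 hypothalamus markers fell (median -1.54), and their sum was 163, 222 and 275 CPM at 2 months against 874, 559, 822 and 687 CPM at 5 weeks. Oxytocin, Oxt, had 11.1 ± 9.91 CPM at 2 months and 162 ± 50.3 CPM at 5 weeks. Of 17 tested midbrain and hindbrain markers 7 rose and 0 fell (median 2.40), with sums of 80.8, 102 and 122 CPM at 2 months against 43.4, 32.5, 37 and 30.4 CPM at 5 weeks. Thalamus markers, which Vipr2 followed among libraries of 1 age, summed to 1670, 1410 and 1550 CPM at 2 months and 1440, 1790, 1270 and 1230 CPM at 5 weeks. Of 11 thalamus markers 1 rose and 0 fell (median 0.07). It was Tnnt1, with 44.3 ± 22 CPM at 2 months and 14.8 ± 5.35 CPM at 5 weeks. The part of these regional differences in the changes of Nms, Vipr2 and Grp was not tested, and at 2 months age and dissection cannot be told apart. Rn7s2 also differed, with 0.177 to 0.435 CPM at 2 months and 24.2 to 29.6 CPM at 5 weeks. That difference between library sets coincides with age too.

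With the 2-month libraries passed over, 6 months against 5 weeks gave 0 members called and 0 without overlap, against 4.58% of all genes that rose, 8.39% that fell and 30.7% without overlap. By edgeR 2193 genes were called and 4756 had an unadjusted p below 0.05. Nms had 0.597 ± 0.346 CPM at 6 months and 0.768 ± 0.246 CPM at 5 weeks (-0.37 ± 0.37, adjusted p = 0.546). Vipr2 differed by -0.26 ± 0.28 and Grp by -0.38 ± 0.21 (adjusted p = 0.578 and 0.24). These 3 genes are the ones called at 2 months against 5 weeks, and both comparisons use the same 5-week libraries. Rn7s2 had 0.175 to 1.78 CPM at 6 months and 24.2 to 29.6 CPM at 5 weeks, so library set and age coincide here as well.

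At 6 months against 2 months 2 members fell and 0 rose, against 1.83% and 1.77% of all genes (3.59% in either direction). Vipr2 had 4.3, 8.92 and 10 CPM at 6 months and 19.9, 13.3 and 14.9 CPM at 2 months (-1.06 ± 0.29, adjusted p = 0.0446). Grp had 2.8, 4.38 and 5.43 CPM at 6 months and 10.2, 9.76 and 6.57 CPM at 2 months (-1.08 ± 0.22, adjusted p = 0.0105). Both calls were lost without 2-month replicate 11, 6-month replicate 32 or 6-month replicate 33, with adjusted p of 0.131 to 0.241 for Vipr2 and 0.0594 to 0.0659 for Grp. Nms had 0.475, 0.987 and 0.327 CPM at 6 months and 0.181, 0.207 and 0.271 CPM at 2 months, which did not pass (1.42 ± 0.45, adjusted p = 0.0714) except without 6-month replicate 34 (1.70, adjusted p = 0.0324). Of the members 4 did not overlap, against 21.8% of genes. This comparison uses the same 2-month libraries as the one with 5 weeks, so the values are not independent of each other. Of the 15 SCN transcription factors, 6 rose and 0 fell at 6 months against 2 months (median 0.69), among them Six6 (2.29), Vax1 (2.63), Dlx2 (1.78) and Dlx6 (2.00). Hypothalamus markers rose in 7 of 20 and fell in 0 (median 0.92). Midbrain and hindbrain markers fell in 2 of 17 and rose in 0 (median -0.48). Of 11 thalamus markers 0 were called (median -0.45), and their sums were 759, 1260 and 1420 CPM at 6 months and 1670, 1410 and 1550 CPM at 2 months. The part of these markers in the falls of Vipr2 and Grp was not tested.

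Later life was read against 6 months. At 12 months against 6 months 0 members were called and 0 were free of overlap, against 0% and 12.6% of all genes. By edgeR 0 genes were called, 1548 had an unadjusted p below 0.05, and DESeq2 called 24. At 18 months against 6 months 0 members were called, against 0.0177% of genes. Vip was the 1 member without overlap, against 12.4% of genes, with 15.9, 5.94 and 7.14 CPM at 18 months and 4.28, 4.77 and 4.68 CPM at 6 months. Its difference of 1.08 ± 0.37 did not pass (adjusted p = 0.505), and it was 0.52 without the library of 15.9 CPM, replicate 14. Nms differed by 0.83 ± 0.38 (adjusted p = 0.616).

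At 24 months against 6 months 0 members were called, against 0.106% of genes (0.0769% up and 0.0296% down), and 3 did not overlap, against 30.2%. Prokr2 had 12.9 and 10 CPM at 24 months and 5.1, 8.52 and 5.86 CPM at 6 months (0.82 ± 0.25, adjusted p = 0.223). Vip had 8.68 and 6.28 CPM at 24 months and 4.28, 4.77 and 4.68 CPM at 6 months (0.71 ± 0.41, adjusted p = 0.632). Prok2 had 0.997 and 0.88 CPM at 24 months and 0.875, 0.428 and 0.393 CPM at 6 months (0.70 ± 0.62, adjusted p = 0.799). The 24-month group had 2 libraries. Both held 84.8 to 88.2 CPM of the markers of library sets in sum, against at most 11.3 CPM from 2 to 18 months. Unlike at 3 weeks, Rn7s2 made 59 and 60 CPM of the 24-month sums, and Bpifa2 made 0.0587 and 0 CPM. The difference in the sums coincides with age and cannot be told apart from it.

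Over adult life the slope of log2 expression per month was fitted to 14 libraries from 2 to 24 months. Prokr2 rose by 0.0449 ± 0.0107 per month (adjusted p = 0.0212), the 1 of 7 members called, against 3.08% of 16633 genes that rose and 4.35% that fell (7.43% in either direction). The call was lost without 2-month replicate 11 (0.0407, adjusted p = 0.0516), 2-month replicate 13 (0.0446, 0.0571) or 24-month replicate 2 (0.0391, 0.0903). Over 6 to 24 months alone the slope was 0.0427 and did not pass (adjusted p = 0.39), and 0 genes were called by edgeR in that fit. Vip had a slope of 0.059 ± 0.0185, which did not pass in edgeR (adjusted p = 0.064) and passed in DESeq2 (0.0591, adjusted p = 0.0172). Prok2 had a slope of 0.0745 ± 0.0268 (adjusted p = 0.0985), Nms 0.0578 ± 0.0279, Lhx1 -0.0127 ± 0.01, Vipr2 -0.0276 ± 0.0171 and Grp -0.0336 ± 0.0148, none of which passed in edgeR.

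In the same trend 6 of 16 SCN peptides and enriched genes rose and 0 fell, among them Calb1 (0.0328 per month), Gpr176 (0.023), Scg2 (0.0196) and Gal (0.0744). Of the relatives, Nmur2 (0.0695) and the receptor of gastrin-releasing peptide, Grpr (0.0667), rose and 0 fell. Rax was the 1 of 15 transcription factors that rose (0.1092), and of the cAMP genes Sik1 rose (0.0284) and Rapgef4 (-0.0324) and Adcy9 (-0.0163) fell. Hypothalamus markers rose in 6 of 20 cases (median slope 0.0581 per month, against 1e-04 over all genes), and midbrain and hindbrain markers fell in 6 of 17 and rose in 1. The low hypothalamus sum of the 2-month libraries is the low end of this trend, and its part in the members' slopes was not tested beyond the fit without those libraries.

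Libraries of 1 age were then compared with each other after the mean of the age was subtracted. Among the 21 pairs of members no relation passed (28 libraries, Pearson's r -0.31 to 0.47, Spearman's rho -0.34 to 0.39, two-sided permutation within ages, lowest adjusted p = 0.639 for r and 0.617 for rho). Vip and Vipr2, ligand and receptor, gave r = 0.13 and rho = 0.07 (permutation adjusted p = 0.852 and 0.929). Prok2 and Prokr2 gave r = 0.40 and rho = 0.29 (permutation adjusted p = 0.639 and 0.721).

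Members were also set against the summed level of 9 region marker lists, which makes 63 relations, chosen after values were seen. Vipr2 followed the thalamus markers (r = 0.87, rho = 0.84, permutation p = 2e-05 and adjusted p = 0.00126 for each). Without the 2 libraries farthest from the median r was 0.82, without P5 it was 0.87 over 25 libraries, and leaving out each library gave 0.85 to 0.89. The most abundant of the 11 thalamus markers in the files were Slc17a6, a glutamate transporter of many hypothalamic neurons as well (383 CPM, 30.1% of the sum), Prkcd (256 CPM) and Tcf7l2 (157 CPM). Lhx9 stands in both the thalamus and the hypothalamus list. In the 6-month libraries, for example, replicates 32, 33 and 34 held 759, 1260 and 1420 CPM of thalamus markers and 4.3, 8.92 and 10 CPM of Vipr2.

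Lhx1 ran against the cortex neuron markers (r = -0.72, rho = -0.75, permutation adjusted p = 0.00126 for each, -0.69 without the 2 farthest libraries). Camk2a made 53.1% of that sum. Nms followed the hypothalamus markers (r = 0.62, rho = 0.62, permutation adjusted p = 0.0157 for r and 0.0534 for rho, 0.65 without the 2 farthest libraries). Of the 63 relations 59 did not pass. Libraries share their dissection, depth and preparation in both measures, and the source of the shared variation was not tested.

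**Figure D4:**
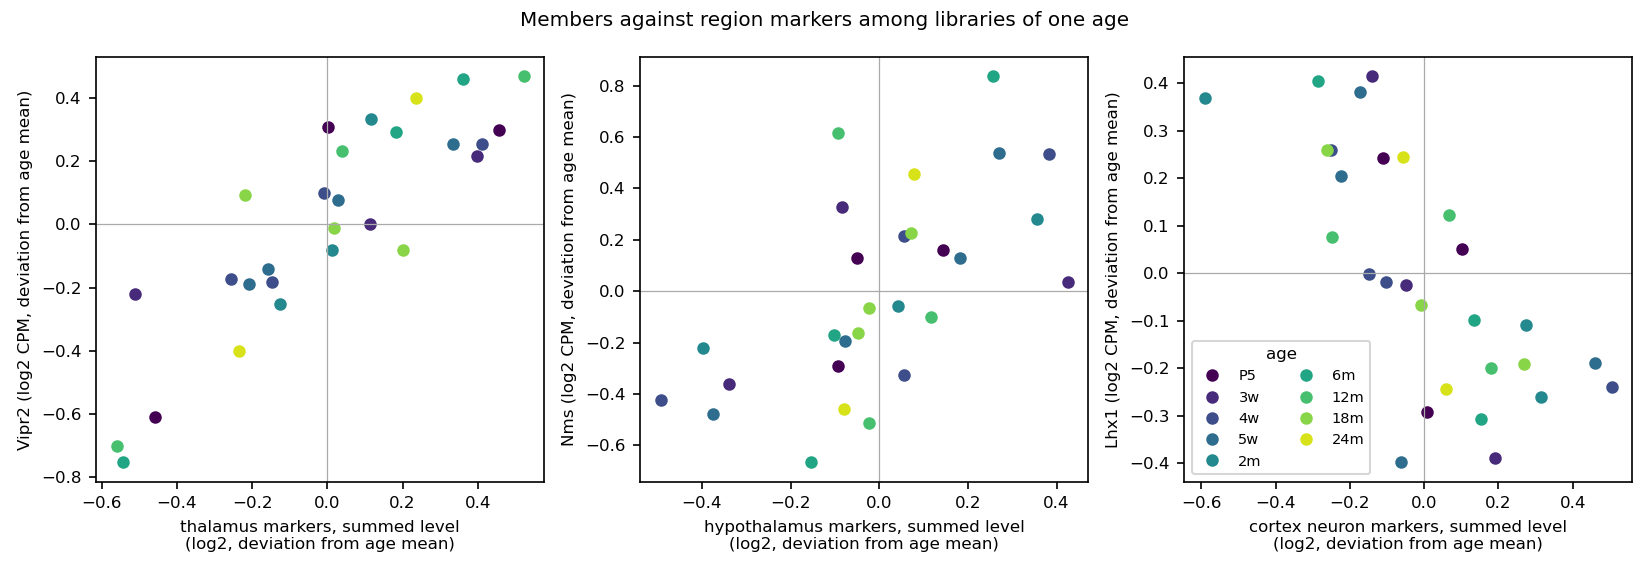
Deviation of log2 CPM from the mean of its age (y axis) for Vipr2, Nms and Lhx1 against the deviation of the summed level of thalamus, hypothalamus and cortex neuron markers (x axes, log2). Each point is 1 of 28 libraries, coloured by age. Vipr2 rises with thalamus markers (r = 0.87), Nms with hypothalamus markers (r = 0.62), and Lhx1 falls with cortex neuron markers (r = -0.72).

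The genes most like each member over the 28 libraries, by Pearson's r of log2 CPM among 13840 genes that averaged 1 CPM or more, are a description of these libraries, which share age, depth and dissection. For Vip they were Nek4 (0.79), P4ha2 (0.78) and the clock gene Per1 (0.77). For Vipr2 they were Rora (0.87), Ramp3 (0.86) and Fhdc1 (0.85), and for Nms the melanocortin receptor gene Mc3r (0.81), the hypothalamic peptide gene Qrfp (0.79) and Gabrq (0.78). Grp was most like Sox14 (0.79), a gene of the midbrain and hindbrain list, Irx1 (0.76) and Rnf182 (0.74). Lhx1 was most like Svep1, Cpxm1 and Nova1 (0.89 each), Prokr2 like Plxnc1 and Celf4 (0.87 each), and Prok2 like Trpc7 (0.74) and Fndc9 (0.73). With the means of the ages subtracted, the closest gene was Prpf3 for Vip (0.82), Endou for Vipr2 (0.91), Lta4h for Prok2 (0.73), Ocrl for Prokr2 (0.81), Wdfy1 for Nms (0.76) and Nxph3 for Grp (0.74). Six6, of the SCN transcription factors, was the next closest to Nms (0.73).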

How the data were processed

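Hypothalamus RNA was read by paired-end sequencing. Per the submitters' processing notes, the authors used HISAT2 2.1.0 with build mm10 (GRCm38) and HTSeq 0.9.1. They deposited raw counts per gene symbol, 1 table per library. Which annotation, strand setting and trimming they used is not given in the sources used here. HTSeq summary lines (26.1 to 32.5% of the total) were removed. The study's design text counts mice, so each library was read as 1 mouse. The tissue follows the label, hypothalamus, though most titles hold letters such as thal.

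From these deposited counts, CPM was computed with edgeR 4.0.16 (TMM scaling, R 4.3.3). Log2 values used a prior count of 1. The third 24-month library (replicate 5) had counts in 1385 genes and was left out, being under 5000, which leaves 28 of 29 libraries. Genes were filtered with filterByExpr by age and fitted in 1 quasi-likelihood model (robust, 1 mean per age), two-sided. P-values were adjusted by Benjamini-Hochberg over all genes of a comparison, and a gene was called, written as rose or fell, below 0.05. The adult trend was a separate fit with age in months. Adjusted p-values come from edgeR except where DESeq2 1.42.0 is named. The tests were checked on simulated counts. Relations within ages used 100000 permutations (NumPy 2.4.6). Errors are SD for CPM and SE for log2 fold changes and slopes.

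The members, gene lists and comparisons were chosen with earlier results of these data known, and the relations to region markers after values were seen. Named genes are the 7 members, up to 4 called genes per pathway list and comparison by smallest p, and the 3 genes most like each member (passing over Gm-number, Rik and -ps symbols). Of these closest genes 3, and of the relations to region markers 1 that passed, are not reported here. Marker genes are given as sums and, singly, beside a result they move with. Alternatives were DESeq2, its size factors, no filter, each library left out, all 29 libraries, P5 replicate 3 alone, the library set as a term, a replicate block, and a trend from 6 months.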

Additional observations from a re-analysis of the deposited data

Results flagged for a closer look

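The third 24-month library, replicate 5, was used in no comparison. Its 2377580 counts fell on 1385 genes. A position in GENCODE M21 was found for 1341 of them, and each lies on chromosome 1 or 10. Of 831 chromosome 1 genes that averaged 1 CPM or more elsewhere 0 were at 0 in it, against 478 of 679 on chromosome 10. Vip and Nms, which lie on these chromosomes, had counts in it. To set the libraries on 1 scale, CPM was taken over the genes counted in the partial library only.

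Vip had 269 counts there, or 113 CPM on this scale, a signal outside the libraries compared. The other 24-month libraries had 130 and 91.4 CPM and the 6-month libraries 62.6 to 69.4 CPM on the same scale, so the partial library lay within the range of its own age and above all 6-month libraries. Nms had 37 counts, or 15.6 CPM on this scale. The other 24-month libraries had 4.85 and 9.27 CPM and the 6-month libraries 4.65 to 14.4 CPM. For Nms the partial library thus lay above both libraries of its age. These values enter no test.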

How the results depend on the processing

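Of 907 values of members under the alternatives, 863 kept their side of the threshold, 34 lost a call and 10 gained one. A called value changed sign in 0 of them, and 38 values that were called under neither setting changed sign. The counts of genes called over the whole table moved more. With DESeq2 in place of edgeR the count was 1284 at 6 months against 2 months (608 with edgeR), 24 at 12 months against 6 months (0), 18 at 18 months against 6 months (3), 109 at 24 months against 6 months (18) and 2045 in the adult trend (1236). Without the filter on low counts it was 11 at 24 months against 6 months. With all 29 libraries, the partial one included, it was 484 over the 9 ages (12991 without it), 0 at 24 months against 6 months and 0 in the trend, and 6 members lost their call over the 9 ages. The trend over 6 to 24 months called 0 genes. The library set as a term gave 32 genes at 5 weeks against 3 weeks (363 without it). The causes were not tested.

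Leaving out 1 library at a time gave 183 to 256 genes at 5 weeks against 3 weeks, 1778 to 2858 at 2 months against 5 weeks, 1292 to 1946 at 6 months against 5 weeks, 51 to 1348 at 6 months against 2 months, 0 to 6 at 18 months against 6 months, 0 to 20 at 24 months against 6 months and 443 to 1557 in the trend. Prok2 passed the test over the 9 ages without P5 replicate 1, 6-month replicate 32, or 12-month replicate 26 or 28 (adjusted p 0.019 to 0.0475), and in DESeq2. Vip passed in the trend without 12-month replicate 28 (adjusted p = 0.0371) or 24-month replicate 4 (0.0483). Prok2 passed in the trend with DESeq2 (0.0777, adjusted p = 0.043).

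The titles of P5 to 5 weeks carry replicate numbers 1 to 4. Same-numbered libraries of 3 weeks and P5 deviated together with correlations of 0.042, 0.131 and 0.053, and those of 5 weeks and 3 weeks with -0.125, -0.209 and -0.119, so the numbers were not taken as pairs. The fit with a replicate block called 10243 genes at 3 weeks against P5 and 251 at 5 weeks against 3 weeks, and changed no call of a member.

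Low counts limit Prok2 and Nms most, and 2 libraries limit the 24-month group. P5 mixes libraries with and without Y-linked counts, and at 2 months region markers moved with age.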
